A study of Homo sapiens with 4 samples.

Results

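The aminoacyl-tRNA synthetases described here are 36 of the 23228 genes counted in the glioblastoma cell line U87 MG. They were chosen by symbol: 20 genes encode cytosolic enzymes, and 16 genes whose symbols end in 2 encode mitochondrial enzymes. GARS and KARS, counted among the cytosolic genes, supply both compartments. The groups were U87 cells transfected with PELP1 siRNA and U87 cells transfected with control siRNA, each with 2 libraries of total RNA taken 72 hours later. PELP1 encodes a scaffold protein of nuclear receptor complexes that also takes part in ribosome assembly, and the comparison addresses how its silencing alters mRNA levels in these cells. A single cell line was used, and nothing in the labels says that the duplicates were separate cultures, so p-values measure only the spread between these libraries, which may be technical.

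Each synthetase joins 1 amino acid to its tRNAs, and the charged tRNA then brings that amino acid to the ribosome. Human cells keep separate genes for most cytosolic and mitochondrial enzymes, because mitochondria translate their own mRNAs with their own tRNAs. Class I and class II synthetases have unrelated catalytic folds. Several cytosolic synthetases are also known as targets of ATF4, the transcription factor induced by amino acid shortage and other stress, which binds C/EBP-ATF response elements.

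Gene counts came to 18670162 to 22858988 per library. PELP1 itself stood at 15.2 and 17.7 CPM (counts scaled to library size by edgeR's TMM method) with PELP1 siRNA, against 73.9 and 78.0 CPM with control siRNA (log2 fold change -2.21, SE 0.097, adjusted p = 8.34e-14). The mesenchymal glioma markers VIM, CD44, FN1 and TNC were abundant and CDKN2A, which U87 cells have lost, had 0 counts in all 4 libraries. The astrocyte markers AQP4 and S100B had 0 or 1 count in each library. The 4 immune markers together reached 0.305 and 0.790 CPM with PELP1 siRNA and 0.412 and 0.357 CPM with control siRNA. Summed levels of the marker lists also moved with the groups: 6 glioma line markers held 13030 and 13530 CPM with PELP1 siRNA and 15800 and 15740 CPM with control siRNA, and 4 astrocyte markers, nearly all SLC1A3, held 71.8 and 67.8 CPM with PELP1 siRNA and 48.5 and 51.7 CPM with control siRNA. Of the glioma line markers, VIM, CD44, FN1 and NES were lower. TNC (0.079, adjusted p = 0.32) and CHI3L1 (0.055, adjusted p = 0.58) went the other way and did not pass. The 4 neuronal markers held 57.7 and 62.8 CPM with PELP1 siRNA and 72.4 and 78.1 CPM with control siRNA. Among them SNAP25 fell (-0.63, adjusted p = 9.04e-06), and SYT1 had 0.28 (adjusted p = 0.0608). The 3 epithelial markers held 1.78 and 1.53 CPM with PELP1 siRNA and 0.980 and 0.892 CPM with control siRNA, with EPCAM higher (1.02, adjusted p = 0.0188); the part of these shifts in the results was not tested. A lower level may come from fewer cells that express a gene or from less RNA per cell, which cannot be told apart in bulk RNA.

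Cytosolic synthetase mRNAs fell more often than they rose with PELP1 siRNA, and the changes were small. Of 20 genes, all of which passed the filter on low counts, 7 were lower, 3 higher and 10 did not pass the threshold, at an adjusted p under 0.05 over all 13234 genes tested. Over all genes tested, 27.9% were called, 15.0% lower and 12.9% higher. The cytosolic median log2 fold change was -0.13, against 0.00088 for all genes, and 16 of the 20 values were negative. Scaled by total counts alone, which moved the median of all genes to 0.049, 3 cytosolic genes were lower and 4 higher, while 16 of 20 values were again negative. Of all 13234 genes tested, 1597 were lower and 2272 higher under that scaling, so lower cytosolic genes no longer outnumbered higher ones. The calls also moved with single libraries: without control library 1 or control library 2, 0 of the 20 were called in either direction by edgeR (at an unadjusted p under 0.05, 4 lower and 0 higher without library 1, 2 lower and 1 higher without library 2). Without PELP1 siRNA library 1 or PELP1 siRNA library 2, the cytosolic median was -0.11 and -0.14. A fit with a lone library assumes that it varies like the other group. With the replicate number as a block, 4 cytosolic genes were lower and 2 higher, against 1968 lower and 1613 higher of all genes tested.

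MARS, the cytosolic methionyl-tRNA synthetase (GRCh37 chromosome 12, 57869228 to 57911352, plus strand), had the smallest adjusted p of the cytosolic genes. It stood at 166 and 177 CPM in PELP1 siRNA libraries, against 211 and 213 CPM in control libraries (log2 fold change -0.31, SE 0.065, adjusted p = 9.87e-04). Its 3′ end shares 2.32% of its exon bases with DDIT3 on the opposite strand, and DDIT3 also fell (-0.38, adjusted p = 0.00145). Of the DDIT3 exon bases, 35.9% are shared, with MARS and with an unnamed gene model on the strand of DDIT3. CARS, which charges cysteine tRNA, had 99.4 and 102 CPM with PELP1 siRNA and 120.2 and 123 CPM with control siRNA (-0.27, SE 0.069, adjusted p = 0.00453). IARS, the isoleucyl enzyme and the most abundant member by CPM, had 682 and 640 CPM with PELP1 siRNA and 764 and 804 CPM with control siRNA (-0.25, SE 0.061, adjusted p = 0.00401). In all 3 genes the PELP1 siRNA libraries lay below the control libraries without overlap.

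The other lower cytosolic genes changed by less, again with both PELP1 siRNA libraries below both control libraries in each gene. NARS, which charges asparagine tRNA, had 350.3 and 346 CPM with PELP1 siRNA and 391 and 410 CPM with control siRNA (-0.20, SE 0.062, adjusted p = 0.0161). WARS, the tryptophanyl enzyme, which is also induced by interferon, had 191 and 196 CPM with PELP1 siRNA and 216 and 223 CPM with control siRNA (-0.19, SE 0.064, adjusted p = 0.0312). The tyrosyl enzyme YARS and the alanyl enzyme AARS stood nearest to the threshold. YARS had 245 and 254 CPM with PELP1 siRNA and 278 and 285 CPM with control siRNA (-0.17, adjusted p = 0.0424). AARS had 196 and 204 CPM with PELP1 siRNA and 225 and 226 CPM with control siRNA (-0.17, adjusted p = 0.0473). WARS did not pass with DESeq2 (adjusted p = 0.0540), with the replicate block (0.0509) or when scaled by total counts (0.0997), with adjusted p from 2.59e-05 to 0.427 over all settings tried. Neither YARS nor AARS passed with DESeq2 (adjusted p = 0.0692 and 0.0812 for YARS and AARS) or with upper quartile scaling (0.0542 and 0.0598), and over all settings tried their adjusted p ranged from 1.52e-05 to 0.449 and from 3.99e-05 to 0.410. In percent, the 7 falls ran from AARS, which fell by 11.2%, to MARS, which fell by 19.2%.

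FARSB, KARS and RARS rose, each with both PELP1 siRNA libraries above both control libraries. FARSB, the beta subunit of the cytosolic phenylalanyl enzyme, had 164 and 166 CPM with PELP1 siRNA and 136 and 142 CPM with control siRNA (0.25, SE 0.066, adjusted p = 0.00695). FARSA, the alpha subunit of the same enzyme, had 123 and 136 CPM with PELP1 siRNA and 136 and 134 CPM with control siRNA (-0.061, adjusted p = 0.557), with overlapping groups. The difference between the subunits was not tested. KARS, the lysyl enzyme of both compartments, had 262 and 289 CPM with PELP1 siRNA and 235 and 248 CPM with control siRNA (0.19, SE 0.067, adjusted p = 0.0384). RARS, which charges arginine tRNA, had 213 and 214 CPM with PELP1 siRNA and 185 and 191 CPM with control siRNA (0.18, SE 0.064, adjusted p = 0.0340). DESeq2 called FARSB alone among these (adjusted p = 0.0763 for KARS and 0.0600 for RARS).

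The 10 cytosolic genes that did not pass had log2 fold changes from -0.16 (VARS, the valyl enzyme, adjusted p = 0.0786) to 0.14 (QARS, the glutaminyl enzyme, adjusted p = 0.109). TARS, the threonyl enzyme, had -0.16 and an adjusted p of 0.0592, and passed with a stricter filter on low counts (0.0450) and with none (0.0429). GARS, the glycyl enzyme of both compartments, stood at 343 and 348 CPM with PELP1 siRNA and 373 and 381 CPM with control siRNA (-0.13, adjusted p = 0.129). DARS, SARS, LARS, HARS and EPRS, for aspartate, serine, leucine, histidine and the joint glutamate and proline enzyme, lay between -0.14 and -0.068. Counting all 20 genes, the libraries of the groups did not overlap in 15 with PELP1 siRNA below and 4 with it above, against 32.3% and 32.0% of all genes tested.

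**Figure D1:**
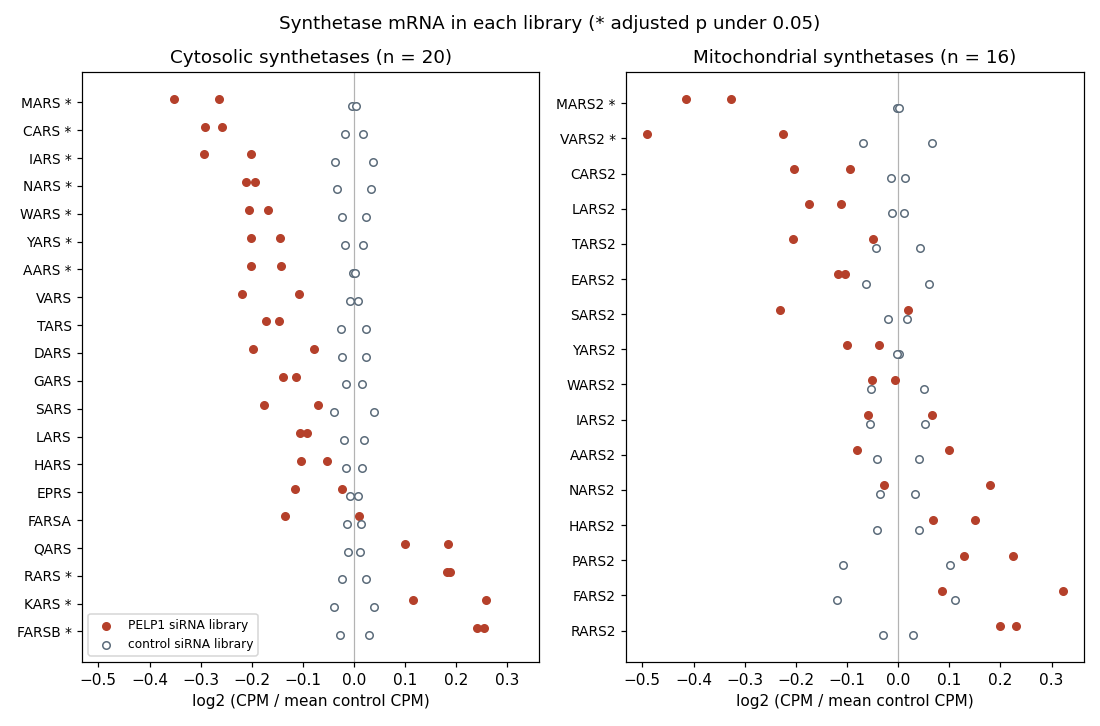
Each point is 1 library, plotted as the log2 ratio of its CPM to the mean of the control libraries, for 20 cytosolic genes at the left and 16 mitochondrial genes at the right; filled points are PELP1 siRNA and open points control siRNA. Asterisks mark an adjusted p under 0.05: 7 lower and 3 higher cytosolic genes and 2 lower mitochondrial genes.

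Promoter windows were searched for TGATGNAA, the core of the C/EBP-ATF response element, on both strands. The windows come from RefSeq (GRCh38.p14), run from 250 bases before to 50 bases after a start site, and cover 30 members; a gene with several windows counts if any holds the word. DARS, LARS, VARS, YARS, AARS2 and VARS2 had no window. The word stood in 7 of 16 cytosolic genes (43.8%), in 1 of 14 mitochondrial genes (7.14%) and in 4.46% of all 27305 genes with a window, or 3.62% of all 35116 windows. The stretches that hold it are shown 5′ to 3′ on the gene's strand, with the match in capitals, which reads TGATGNAA or, where it lies on the opposite strand, its reverse complement.
MARS, chr12:57488038-57488097, plus strand: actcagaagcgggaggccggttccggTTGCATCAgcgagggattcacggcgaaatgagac
CARS, chr11:3057392-3057451, minus strand: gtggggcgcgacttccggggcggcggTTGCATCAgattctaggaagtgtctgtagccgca
IARS, chr9:92293677-92293736, minus strand: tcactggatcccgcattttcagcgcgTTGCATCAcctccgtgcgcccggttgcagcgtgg
NARS, chr18:57621789-57621848, minus strand: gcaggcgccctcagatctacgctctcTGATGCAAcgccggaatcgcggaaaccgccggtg
AARS, chr16:70289660-70289719, minus strand: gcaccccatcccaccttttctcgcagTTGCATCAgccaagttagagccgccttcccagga
TARS, chr5:33440941-33441000, plus strand: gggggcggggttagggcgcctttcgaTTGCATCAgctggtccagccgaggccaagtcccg
GARS, chr7:30594819-30594878, plus strand: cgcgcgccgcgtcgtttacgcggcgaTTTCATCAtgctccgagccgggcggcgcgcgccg
YARS2, chr12:32756061-32756120, minus strand: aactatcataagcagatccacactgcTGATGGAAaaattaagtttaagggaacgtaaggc

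The word was chosen with earlier results of these data known, so the values by word are a description only. The 7 cytosolic genes with the word had log2 fold changes from -0.31 (MARS) to -0.13 (GARS), with a median of -0.20. Of these, 5 were lower and 2, TARS and GARS, did not pass. The 9 cytosolic genes whose windows lack it ran from -0.19 (WARS) to 0.25 (FARSB), with a median of -0.061. They hold all 3 higher genes and 1 lower gene. YARS2, the mitochondrial gene with the word, had -0.068 (adjusted p = 0.621). Over all genes tested that have a window, 305 held the word, with a median of -0.039 and 22.3% lower, and 9860 did not, with a median of 0.0044 and 14.9% lower. In MARS, CARS and TARS the match starts at bases 247, 249 and 253 of the window, next to the start site that follows base 250. A match of letters is a description of the window and shows no binding.

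**Figure D2:**
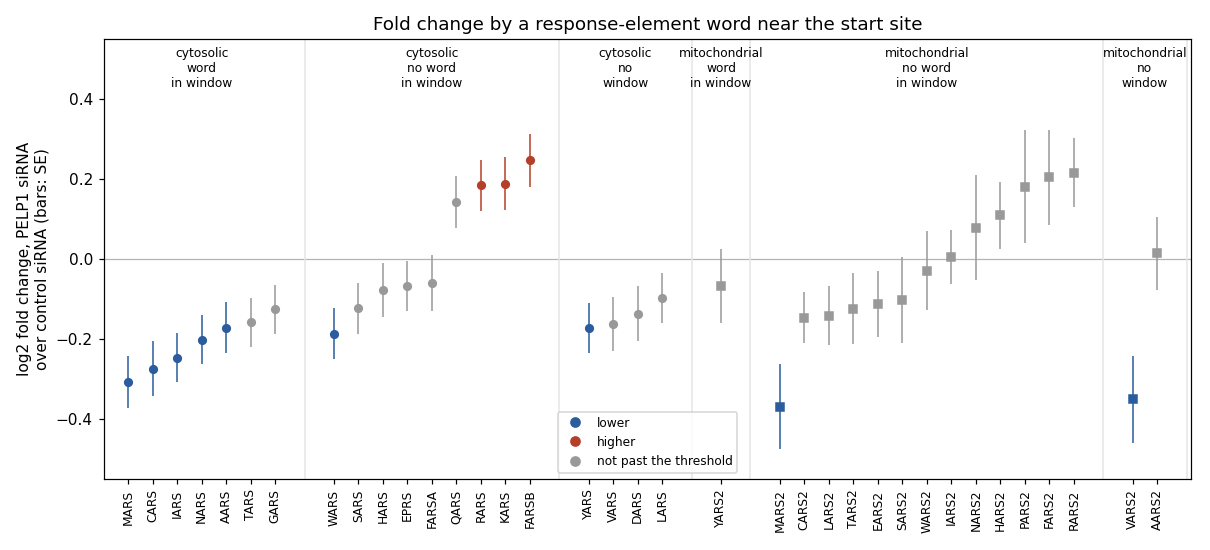
The log2 fold change of each member, PELP1 siRNA over control siRNA, with its SE as a bar, grouped by compartment and by whether a promoter window holds TGATGNAA; circles are cytosolic and squares mitochondrial genes, blue where lower, red where higher and grey where the threshold was not passed. The 7 cytosolic genes with the word lie from -0.31 to -0.13, and the 3 higher genes lie among the 9 without it. The word was chosen with earlier results of these data known.

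Of the 16 mitochondrial synthetase mRNAs, all tested, 2 were lower, 0 higher and 14 did not pass (edgeR). The share of lower genes, 12.5%, was near the 15.0% of all genes tested. At an unadjusted p under 0.05, 3 were lower and 1 higher, against 2678 lower and 2478 higher of all 13234 genes tested. DESeq2 called 0 mitochondrial synthetases in either direction, against 1406 lower and 1118 higher of all genes. By limma-voom 2 were lower, against 1955 lower of all genes. The mitochondrial median log2 fold change was -0.049, and 9 values were negative and 7 positive. It was -0.00088 when scaled by total counts, with 8 negative and 8 positive, and -0.084 without PELP1 siRNA library 2, with 11 negative and 5 positive. Without control library 1 or control library 2, 0 were called by edgeR, against 1 and 2 lower and 0 higher at an unadjusted p under 0.05. Without PELP1 siRNA library 1, the mitochondrial median was -0.039.

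MARS2, the mitochondrial methionyl enzyme and a gene of 1 exon (GRCh37 chromosome 2, 198570093 to 198573119, plus strand), had 15.7 and 14.8 CPM with PELP1 siRNA and 19.7 and 19.8 CPM with control siRNA (-0.37, SE 0.11, adjusted p = 0.0111). VARS2, the mitochondrial valyl enzyme, had 16.3 and 19.6 CPM with PELP1 siRNA and 24.03 and 21.9 CPM with control siRNA (-0.35, SE 0.11, adjusted p = 0.0184). In both genes the PELP1 siRNA libraries lay below the controls. DESeq2 gave an adjusted p of 0.0697 for MARS2 and 0.0865 for VARS2, and VARS2 did not pass without PELP1 siRNA library 1 (log2 fold change -0.22, adjusted p = 0.0811), while it stood at -0.48 without PELP1 siRNA library 2. These were genes of low counts, with 281 to 443 reads for MARS2 and 322 to 491 for VARS2 in a library. A non-coding transcript of GENCODE on the same strand covers 100% of the VARS2 exon bases, so reads of this transcript and of VARS2 cannot be told apart there.

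The highest mitochondrial value was that of RARS2, the arginyl enzyme, with 46.9 and 45.9 CPM with PELP1 siRNA and 40.8 and 39.1 CPM with control siRNA (0.22, SE 0.086, adjusted p = 0.0645). RARS2 passed without PELP1 siRNA library 1 (0.0230), without PELP1 siRNA library 2 (0.00682) and when scaled by total counts (0.0249). FARS2, the phenylalanyl enzyme, had 15.1 and 17.8 CPM with PELP1 siRNA and 13.1 and 15.4 CPM with control siRNA (0.20, adjusted p = 0.217), with overlapping groups. IARS2, the isoleucyl enzyme, stood at 244 and 224 CPM with PELP1 siRNA and 225 and 242 CPM with control siRNA (0.0042, adjusted p = 0.969), with the control values between the PELP1 siRNA values. The other mitochondrial genes lay between -0.15 (CARS2, adjusted p = 0.0908) and 0.18 (PARS2, the prolyl enzyme, adjusted p = 0.359). An unnamed protein-coding gene model of GENCODE on the same strand covers 77.5% of the exon bases of SARS2, the seryl enzyme (-0.10, adjusted p = 0.515).

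Set side by side for the same amino acid, the cytosolic gene had the lower log2 fold change in 12 of 17 pairings of a cytosolic with a mitochondrial gene. The median of the differences, cytosolic minus mitochondrial, was -0.10. EPRS and FARS2 enter 2 pairings each, all pairings share the same 4 libraries, and the differences were not tested. The widest gap was that of asparagine, with -0.20 for NARS and 0.078 for NARS2, which had 9.54 and 11.01 CPM with PELP1 siRNA and 9.49 and 9.95 CPM with control siRNA. For isoleucine the values were -0.25 for IARS and 0.0042 for IARS2, and for alanine -0.17 for AARS and 0.013 for AARS2. Tryptophan gave -0.19 for WARS and -0.029 for WARS2. Valine went the other way, with -0.16 for VARS and -0.35 for VARS2. The methionine pair stood at -0.31 and -0.37 for MARS and MARS2, both lower past the threshold, and the arginine pair at 0.18 and 0.22 for RARS and RARS2, of which RARS alone passed.

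**Figure D3:**
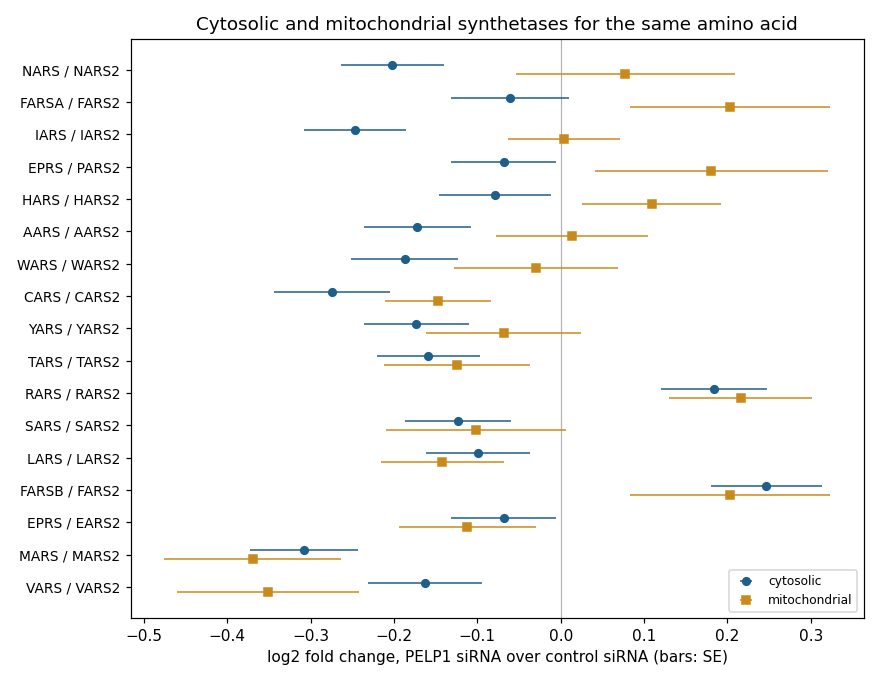
The log2 fold change, PELP1 siRNA over control siRNA, of the cytosolic gene (circle) and the mitochondrial gene (square) for the same amino acid, with bars for the SE, ordered by their difference. The cytosolic value is the lower of the pair in 12 of 17 pairings, from NARS with NARS2 at the top, and the higher in 5, down to VARS with VARS2 at the bottom.

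Summed over the 20 cytosolic genes, the libraries held 4797 and 4851 CPM with PELP1 siRNA and 5133 and 5291 CPM with control siRNA. The 16 mitochondrial genes together held 956 and 976 CPM with PELP1 siRNA and 1003 and 1015 CPM with control siRNA. The cytosolic sum was thus 5.02 and 4.97 times the mitochondrial sum with PELP1 siRNA, against 5.12 and 5.21 times with control siRNA. As scaled by TMM, both sums were lower in the PELP1 siRNA libraries without overlap, as were 32.3% of all genes tested. The TMM factors were 1.016 and 1.017 with PELP1 siRNA and 0.987 and 0.981 with control siRNA, and sums by total counts were not compared. Of the mitochondrial sum, CARS2, which did not pass, held 262 and 283 CPM with PELP1 siRNA and 304.5 and 299 CPM with control siRNA.

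Levels of different genes were compared as CPM per kb of the canonical transcript. With control siRNA, SARS, the seryl enzyme, had the highest level, 197 ± 7.65 CPM per kb (SD, n = 2), followed by IARS at 175 ± 6.42. With PELP1 siRNA, SARS stood at 181 ± 9.37 and IARS at 147 ± 6.66 CPM per kb. CARS2, the mitochondrial cysteinyl enzyme, stood at 148 ± 7.98 CPM per kb with PELP1 siRNA and 164 ± 2.07 with control siRNA, where it ranked 3 of 36. Its cytosolic counterpart CARS had 36.8 ± 0.619 CPM per kb with PELP1 siRNA and 44.5 ± 0.737 with control siRNA, which is 0.248 and 0.271 times the level of CARS2. Cysteine was the exception among 17 pairings: in the other 16 the cytosolic mRNA was the more abundant, from 2.22 times (IARS over IARS2) to 30.8 times (NARS over NARS2) with PELP1 siRNA, and from 2.42 times (FARSB over FARS2) to 37.5 times (NARS over NARS2) with control siRNA. IARS2, at 66.4 ± 4.06 CPM per kb with PELP1 siRNA and 66.2 ± 3.45 with control siRNA, was the other mitochondrial mRNA within the cytosolic range. In control libraries the other 14 mitochondrial genes all ranked below every cytosolic gene, down to PARS2 at 3.39 ± 0.346 CPM per kb. FARSB, the lowest cytosolic gene (24.4 ± 0.149 with PELP1 siRNA and 20.5 ± 0.579 with control siRNA), and HARS2, the highest of these 14 (21.8 ± 0.885 and 20.2 ± 0.825), did not differ beyond their spread in control libraries. The rank of FARSB rests on a canonical transcript of 6761 bases.

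**Figure D4:**
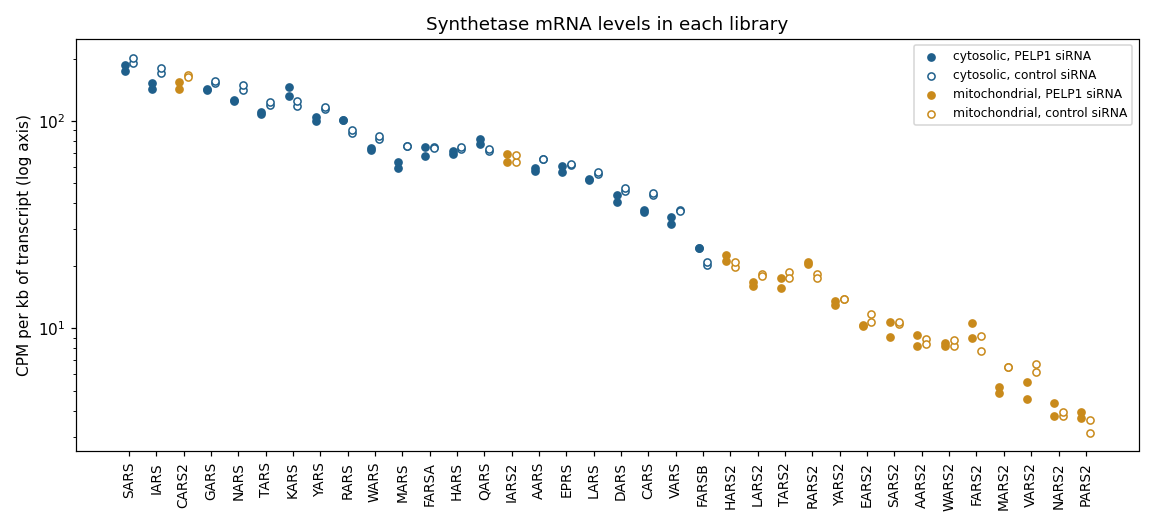
CPM per kb of transcript on a log axis for each of the 36 genes, ordered by their control mean; blue points are cytosolic and ochre points mitochondrial genes, filled for PELP1 siRNA and open for control siRNA libraries. CARS2 and IARS2 lie among the cytosolic genes, and the other 14 mitochondrial genes lie at the low end.

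By enzyme class, 5 of the 9 cytosolic class I genes were lower (CARS, IARS, MARS, WARS and YARS) and 1 higher (RARS). Of the 10 cytosolic class II genes, 2 were lower (AARS and NARS) and 2 higher (FARSB and KARS). The median log2 fold change was -0.17 for class I and -0.12 for class II, and EPRS, which joins an enzyme of each class, had -0.068. Among mitochondrial genes, 2 of 9 class I genes were lower, and 0 of 7 class II genes were called by edgeR. The lower shares were 55.6% and 20% for cytosolic class I and class II, and 22.2% for mitochondrial class I. Over all genes tested, 15.0% were lower and 12.9% higher, and the differences between classes were not tested.

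The 8 cytosolic genes whose proteins sit in the multisynthetase complex moved both ways. IARS and MARS were lower, KARS and RARS higher, and DARS, EPRS, LARS and QARS did not pass, with a median of -0.084. The 12 outside the complex had 5 lower and 1 higher, with a median of -0.16. The lower shares were 25% in the complex and 41.7% outside it, against 15.0% lower and 12.9% higher over all genes tested. The difference between these sets was not tested. Of the complex's 3 scaffold proteins, AIMP2 fell, with 18.3 and 16.9 CPM with PELP1 siRNA and 21.3 and 23.9 CPM with control siRNA (-0.37, SE 0.11, adjusted p = 0.0115). AIMP2 shares 44.4% of its exon bases with EIF2AK1 on the opposite strand. AIMP1 (0.0020, adjusted p = 0.986) and EEF1E1 (0.088, adjusted p = 0.680) did not pass.

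Several members start next to another gene on the opposite strand. HARS and HARS2, the cytosolic and mitochondrial histidyl enzymes, lie head to head on chromosome 5 with start sites 85 bases apart. HARS had 134 and 139 CPM with PELP1 siRNA and 143 and 146 CPM with control siRNA (-0.079, adjusted p = 0.409), and HARS2 had 52.4 and 55.5 CPM with PELP1 siRNA and 48.5 and 51.4 CPM with control siRNA (0.11, adjusted p = 0.353). KARS starts 108 bases from TERF2IP, which encodes the telomere protein RAP1. While KARS rose, TERF2IP fell to 64.2 and 64.3 CPM with PELP1 siRNA, against 101 and 104 CPM with control siRNA (-0.67, SE 0.074, adjusted p = 3.28e-07). FARS2 starts 563 bases from LYRM4, a factor of iron-sulfur cluster assembly, which rose (0.37, adjusted p = 0.00666). The neighbours S100PBP of YARS, UBFD1 of EARS2, ORC3 of RARS2 and MRPS12 of SARS2 had log2 fold changes from -0.11 to 0.080 and did not pass.

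Genes of related function were listed beside the synthetases. XPOT, which carries tRNA out of the nucleus, had 212 and 182 CPM with PELP1 siRNA and 302 and 305 CPM with control siRNA (-0.62, SE 0.070, adjusted p = 4.80e-07). Together with POLR3A, the largest subunit of RNA polymerase III (-0.23, adjusted p = 0.0255), it was 1 of 2 lower genes among 14 of tRNA transcription and export, with 0 higher by edgeR. That share of lower genes, 14.3%, was near the 15.0% of all genes tested. Of 6 cytosolic elongation factors, EEF1G, a subunit of the exchange factor of elongation factor 1, was higher (0.24, adjusted p = 0.0180), though 99.5% of its exon bases are shared with an unnamed gene model on the same strand. EEF1A1, which carries charged tRNA to the ribosome, and EEF2, which drives translocation, did not pass (0.066 and -0.031), nor did EEF1D (-0.18), EEF1B2 (-0.070) and EEF1A2 (-0.15). Mitochondria make glutaminyl-tRNA by amidating glutamyl-tRNA, and the amidotransferase genes QRSL1 (0.19, adjusted p = 0.0877), PET112 (0.099) and GATC (-0.14) did not pass, nor did the formylating enzyme MTFMT (0.23). PSTK (0.16), SEPSECS (0.12), AARSD1 (0.066) and DTD1 (0.12), of selenocysteine synthesis and proofreading, the further synthetase TARSL2 (-0.22), and 9 mitochondrial translation factors did not pass the threshold with edgeR. The mitochondrial factors ran from -0.15 (MTIF2) to 0.14 (MTIF3).

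Of 11 stress transcription factors, kinases and marker targets, 9 were lower and 0 higher, with a median of -0.39. Over all genes tested, the shares were 15.0% lower and 12.9% higher. This list was chosen with earlier results of these data known, so its count is a description only. ATF4 had 115 and 131 CPM with PELP1 siRNA and 162 and 161 CPM with control siRNA (-0.39, SE 0.072, adjusted p = 2.58e-04). ASNS, the asparagine synthetase, which is no tRNA enzyme, had 40.7 and 41.1 CPM with PELP1 siRNA and 70.3 and 75.8 CPM with control siRNA (-0.84, adjusted p = 5.96e-08). A non-coding transcript on the same strand shares 99.5% of the ASNS exon bases. PPP1R15A, a phosphatase subunit that reverses the stress block on translation, stood at -0.65 (adjusted p = 7.19e-07). The kinases EIF2AK4, which senses uncharged tRNA, and EIF2AK3 did not pass (-0.11 and 0.065). The 7 lower cytosolic synthetases had log2 fold changes of -0.31 to -0.17, closer to 0 than that of ATF4; these differences were not tested.

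Fallen genes of this comparison often carry the 7-base words CTCAGTT or GCCTTGA in their 3′ UTR. Both words were picked on these same fold changes, so this excess is no separate result. Of the tested genes with an annotated 3′ UTR, 25.2% carried a word, and of those called lower 42.6%. Among cytosolic synthetases 1 of 20 did, FARSB, which rose, and 0 of the 7 lower genes. The 3′ UTRs of these 7 genes run from 71 (MARS) to 1085 bases (WARS), and that of FARSB has 4972 bases. These shares were not adjusted for 3′ UTR length. Among mitochondrial synthetases 4 of 16 carried a word: EARS2, PARS2, WARS2 and MARS2, of which MARS2 was lower. Among the genes of tRNA transcription and export, XPOT and POLR3A carry CTCAGTT, as do BDP1, GTF3C4 and POLR3E, which did not pass. BRF1 and POLR3C carry GCCTTGA and did not pass either. The part of these words in the results was not tested.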

How the data were processed

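RNA from 2 PELP1 siRNA and 2 control siRNA libraries was read as single-end reads, per the labels' protocols. The authors deposited read counts per gene symbol with no normalization, made with CASAVA 1.8.2, TopHat2 2.0.8b and HTSeq on hg19 (GRCh37), per the submitters' processing notes. For the annotation, the strand setting and the version of HTSeq, the sources used here give nothing; such counting drops reads that align to several places or overlap several genes. The 5 summary lines that name no gene, 36.0 to 37.6% of each file's counts, took no part.

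Of 23228 genes, 13234 passed filterByExpr of edgeR 4.0.16 (minimum count 10, minimum total count 15) and were fitted in R 4.3.3 by a robust quasi-likelihood test with TMM scaling and the group as sole term. P-values were adjusted by Benjamini-Hochberg over all genes tested and called under 0.05; the SE is the absolute log2 fold change over the square root of F. The libraries of a group differed beyond sampling noise (chi-square per gene 7.13 for PELP1 siRNA, 2.09 for control siRNA). Alternatives were DESeq2 (1.42.0) size factors and Wald test, upper quartile and total count scaling, other filters, limma-voom (limma 3.58.1), a fit that was not robust, a replicate block and leaving out each library. The fit was tested on simulated data with planted changes. The simulation changed 50 genes at each fold size, far fewer than the 3692 genes called in the data, so its rates may not hold for the data. The fit recovered 23 of 50 genes changed 1.25-fold and 44 of 50 changed 2-fold, and 13 of its 167 calls were false. Changes as small as those of most members can thus be missed, and not passing does not show that a gene was unchanged.

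Symbols were matched to GENCODE v44lift37 (GRCh37) for positions, canonical transcript lengths and shared exon bases. Members, related lists and the promoter word were chosen with earlier results of these data known. All 36 members are accounted for, called members with every library's value; of related lists of more than 8 genes, up to 2 per direction with the smallest adjusted p are named, and ATF4, the EIF2AK kinases, MTIF2 and MTIF3 were named after their values were seen.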

Additional observations from a re-analysis of the deposited data

How the results depend on the processing

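Depth ran from 18670162 to 22858988 gene counts a library, and 2 libraries a group limit the calls. All 3 higher and all 7 lower cytosolic genes kept their direction under all 13 alternatives, as did MARS2 and VARS2. Scaled by total counts, 3 cytosolic genes were lower and 1 mitochondrial gene was higher, and the medians were -0.084 (cytosolic) and -0.00088 (mitochondrial), beside 2272 genes higher and 1597 lower of all tested, against 1712 and 1980 with TMM. DESeq2's Wald test gave 1118 genes higher, 1 cytosolic gene higher, 4 cytosolic genes lower and 0 mitochondrial genes lower. With the replicate block, 4 cytosolic genes were lower; the numbers do not pair the libraries in the labels, and same-numbered libraries' deviations had a correlation of -0.031. Leaving out 1 library, with a lone library assumed to vary like the other group, gave 523 to 2724 genes higher and 943 to 2804 lower, 0 to 4 cytosolic genes higher and 0 to 12 lower, and 0 to 2 mitochondrial genes higher and 0 to 4 lower, with medians of -0.16 to -0.11 (cytosolic) and -0.084 to -0.038 (mitochondrial). Of 36 members, 6 with values near 0 changed sign and did not pass the threshold, apart from FARSA without PELP1 siRNA library 2 (lower, adjusted p = 0.0273): WARS2 (0.019 with total counts, -0.079 to 0.024 without 1 library), IARS2 (-0.0054 with no filter, -0.00070 with the stricter filter, -0.057 to 0.069 without 1 library), AARS2 (-0.073 to 0.11), FARSA (-0.13 to 0.013), SARS2 (-0.23 to 0.022) and NARS2 (-0.024 to 0.18 without 1 library). The causes were not tested.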
